A study of Mus musculus with 2 samples.

Results

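Collagen genes of the mouse brain were described across cell classes in 2 pooled single-cell samples. The members were the 44 of 31053 features whose symbol is Col, a number, the letter a and a number with nothing after (as Col1a1). They were set in 3 groups: 11 fibrillar, 8 basement membrane and 25 other collagen genes. All 44 matched the gene annotation by identifier, and each had at least 1 transcript count in the kept cells.

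Collagens are triple helical proteins built from 3 chains, which can be copies of 1 gene's product or the products of several genes. Fibrillar collagens such as type I and type III form the tensile fibres of connective tissue, and type IV collagen forms the sheet under epithelium and around vessels and astrocyte endfeet. In the brain, fibres are largely kept to the meninges, choroid plexus stroma and larger vessels, while basement membranes line the whole vascular tree. The other collagens include the beaded filaments of type VI, the hexagonal networks of type VIII, collagens that decorate fibrils such as types IX and XII, and transmembrane collagens such as types XIII, XXIII and XXV.

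The sequence next to the start site is shown for 5 members described in the results. Col3a1 was highest in fibroblast-like cells, Col4a4 and Col4a6 belong to the gene pairs that start back to back, Col11a2 was highest in oligodendrocyte precursor-like cells, and Col27a1 was the leading collagen of microglia-like cells, though not confined to them. Capitals mark the letters TATAAA, the letters CCAAT or the letters GGGCGG on either strand, and sequences run 5′ to 3′ on the gene's own strand, upstream of the RefSeq start (GRCm38.p6).
Col3a1, chr1:45311418-45311537, plus strand: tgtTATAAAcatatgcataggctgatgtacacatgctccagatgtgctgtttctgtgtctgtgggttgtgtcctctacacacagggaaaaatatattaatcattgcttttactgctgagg
Col4a4, chr1:82586850-82586920, minus strand: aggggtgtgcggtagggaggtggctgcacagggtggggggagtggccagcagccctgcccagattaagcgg
Col4a6, chrX:141474077-141474196, minus strand: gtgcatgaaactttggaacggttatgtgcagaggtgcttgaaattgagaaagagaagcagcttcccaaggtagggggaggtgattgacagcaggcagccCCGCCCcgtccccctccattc
Col11a2, chr17:34039018-34039137, plus strand: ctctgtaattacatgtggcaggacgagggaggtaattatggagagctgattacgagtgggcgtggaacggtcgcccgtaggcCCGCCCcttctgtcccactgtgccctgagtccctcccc
Col27a1, chr4:63215292-63215411, plus strand: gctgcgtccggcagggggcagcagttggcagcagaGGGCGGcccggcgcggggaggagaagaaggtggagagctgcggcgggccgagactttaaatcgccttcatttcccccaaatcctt

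The Col4a4 stretch is the whole gap of 71 bases between Col4a4 and Col4a3, which start 72 bases apart on opposite strands. Col4a5 and Col4a6 start 1309 bases apart in the same layout. The annotated starts of Col4a1 (chr8:11198423-11312826, minus strand) and Col4a2 (chr8:11312805-11449287, plus strand) overlap by their first bases, so no sequence lies between them. The promoter table held 35 of the 44 members, as windows of 300 bases of which 250 lie before the start. GGGCGG was found in 22 of these 35 genes (62.9%), against 38.2% of the 27025 genes in the table. CCAAT was found in 13 (37.1%, against 41.1%) and TATAAA in 5 (14.3%, against 15.7%). These matches describe letters in a window and do not show a bound site.

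The sorted brain sample pooled male mice of 3 and 12 months after fluorescence-activated sorting, and the labels name no gate. In the total brain sample, cells were not sorted and came from mice of both sexes, 2 and 24 months old, the older age being written as 240 in its label. Both samples mixed wild type (WT) mice with STING-KO mice, which lack the adaptor that relays sensing of cytosolic DNA, with 2 mice grouped per genotype and age. No source used here ties a barcode suffix (4 in each sample) to an age or a genotype, so neither can be compared. Sort, age and sex differ together between the samples and cannot be told apart.

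Kept cells numbered 10076 in the sorted and 9367 in the total sample, with 31220601 and 33498788 unique molecular identifiers (UMIs), of which 13023 and 31671 came from collagen genes. A level, in CPM, is a gene's share of the UMIs of a class times 1000000, with no length scaling since the libraries read the 3′ end. Brackets give 95% intervals, exact and for counting error only. There is 1 sample per group, so no test was made and no difference has a replicate check. In a summed class, fewer expressing cells and less RNA per cell cannot be told apart. Kept cells of the 2 samples shared 0 barcode sequences, and suffixes within a sample shared 0 to 13. RNA of other classes was widespread: marker genes of choroid plexus epithelium summed to 8877 CPM in sorted microglia-like cells, and neuron markers to 11596 CPM in total astrocyte-like cells. Its part in the collagen levels was not tested unless a value is given.

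Different cells held the collagen RNA of each sample. In the sorted sample, choroid plexus epithelial-like cells held 52.7% [51.8 to 53.6] of the collagen UMIs and fibroblast-like cells 32.1% [31.3 to 32.9], although the latter were 4.04% of the cells. In the total sample, neuron-like cells held 41.2% [40.6 to 41.7], endothelial-like cells 21.6% and fibroblast-like cells 10.3% [9.96 to 10.6] from 1.32% of the cells. The order differed by collagen group. Fibrillar UMIs of the sorted sample lay in fibroblast-like (53.1%) and microglia-like cells (35.2%), and those of the total sample in neuron-like (40.9%), fibroblast-like (17.3%) and astrocyte-like cells (15.5%). Basement membrane UMIs of the total sample lay in endothelial-like (49.7%) and neuron-like cells (32.5%), whereas choroid plexus-like cells held 44.6% of the few in the sorted sample.

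**Figure D1:**
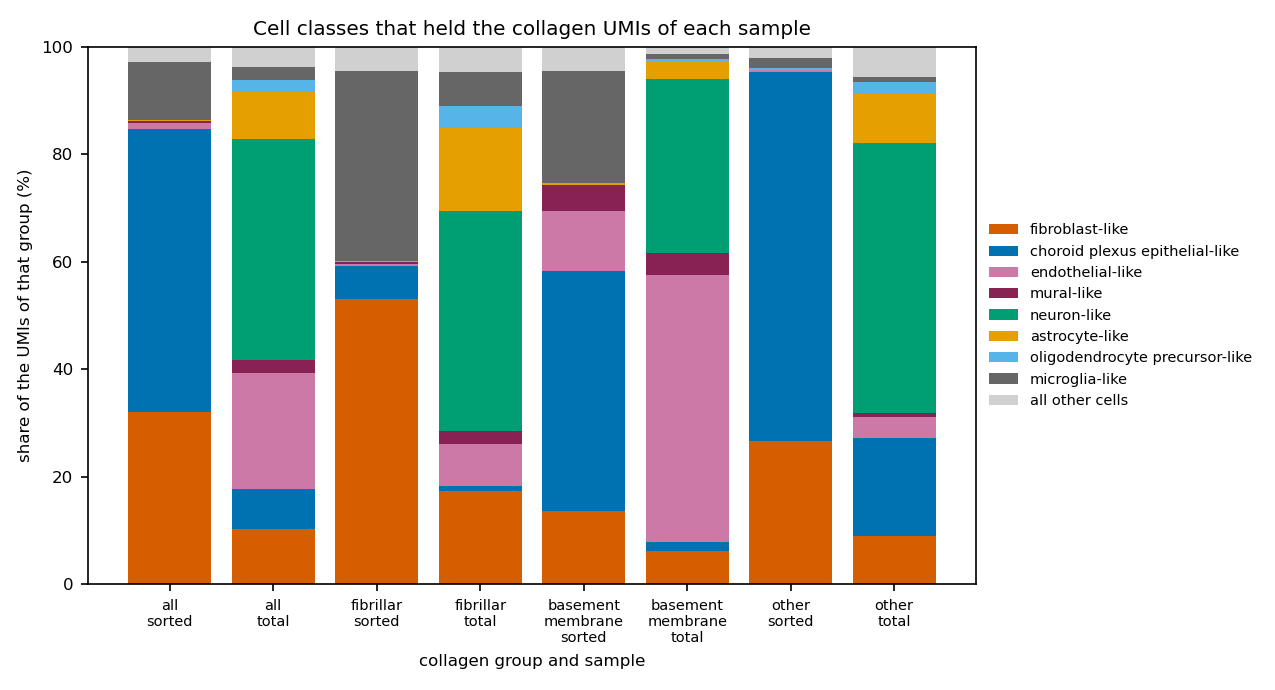
Stacked bars give the share (%) of collagen UMIs that lay in each cell class, for all collagens and for each group, in the sorted and the total sample. Choroid plexus-like and fibroblast-like cells fill most of the first bar, and neuron-like and endothelial-like cells most of the second.

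Per cell class the order was another. Fibroblast-like cells had the highest summed collagen level in both samples, 2804 CPM [2720 to 2891] in 407 sorted cells and 7810 CPM [7544 to 8082] in 124 total cells. Mural-like cells, the contractile cells of vessel walls, followed with 1298 CPM in 29 sorted and 2015 CPM [1873 to 2165] in 152 total cells. Oligodendrocyte precursor-like (1728 CPM), neuron-like (1177 CPM) and astrocyte-like cells (1161 CPM) of the total sample came next, and the intervals of the last of these, 1118 to 1205, and of neuron-like cells, 1157 to 1197, overlap. Microglia-like cells had 149.9 CPM sorted and 236 CPM total, and T cell-like cells 28.9 and 24.2 CPM.

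A class can sum high from few or many genes. In fibroblast-like cells 16 of 44 members reached 10 CPM with at least 3 UMIs in the sorted sample, beside 26.3% of all features, and 30 of 44 in the total sample, beside 32.3%. The count was 25 in total mural-like cells (33.9% of all features), 22 in oligodendrocyte precursor-like cells (36%), 20 in neuron-like cells (33.8%) and 19 in astrocyte-like cells (35.4%). Endothelial-like cells summed to 868 CPM from 7 members (29.7%), and choroid plexus-like cells of the sorted sample to 517.5 CPM from 3 (17.1%). The highest level of a member with at least 20 CPM and 10 UMIs lay in fibroblast-like cells for 17 of 34 such members. For the others it lay in oligodendrocyte precursor-like (6), mural-like (4), neuron-like (3), ependymal-like (2), astrocyte-like (1) or choroid plexus-like cells (1).

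**Figure D2:**
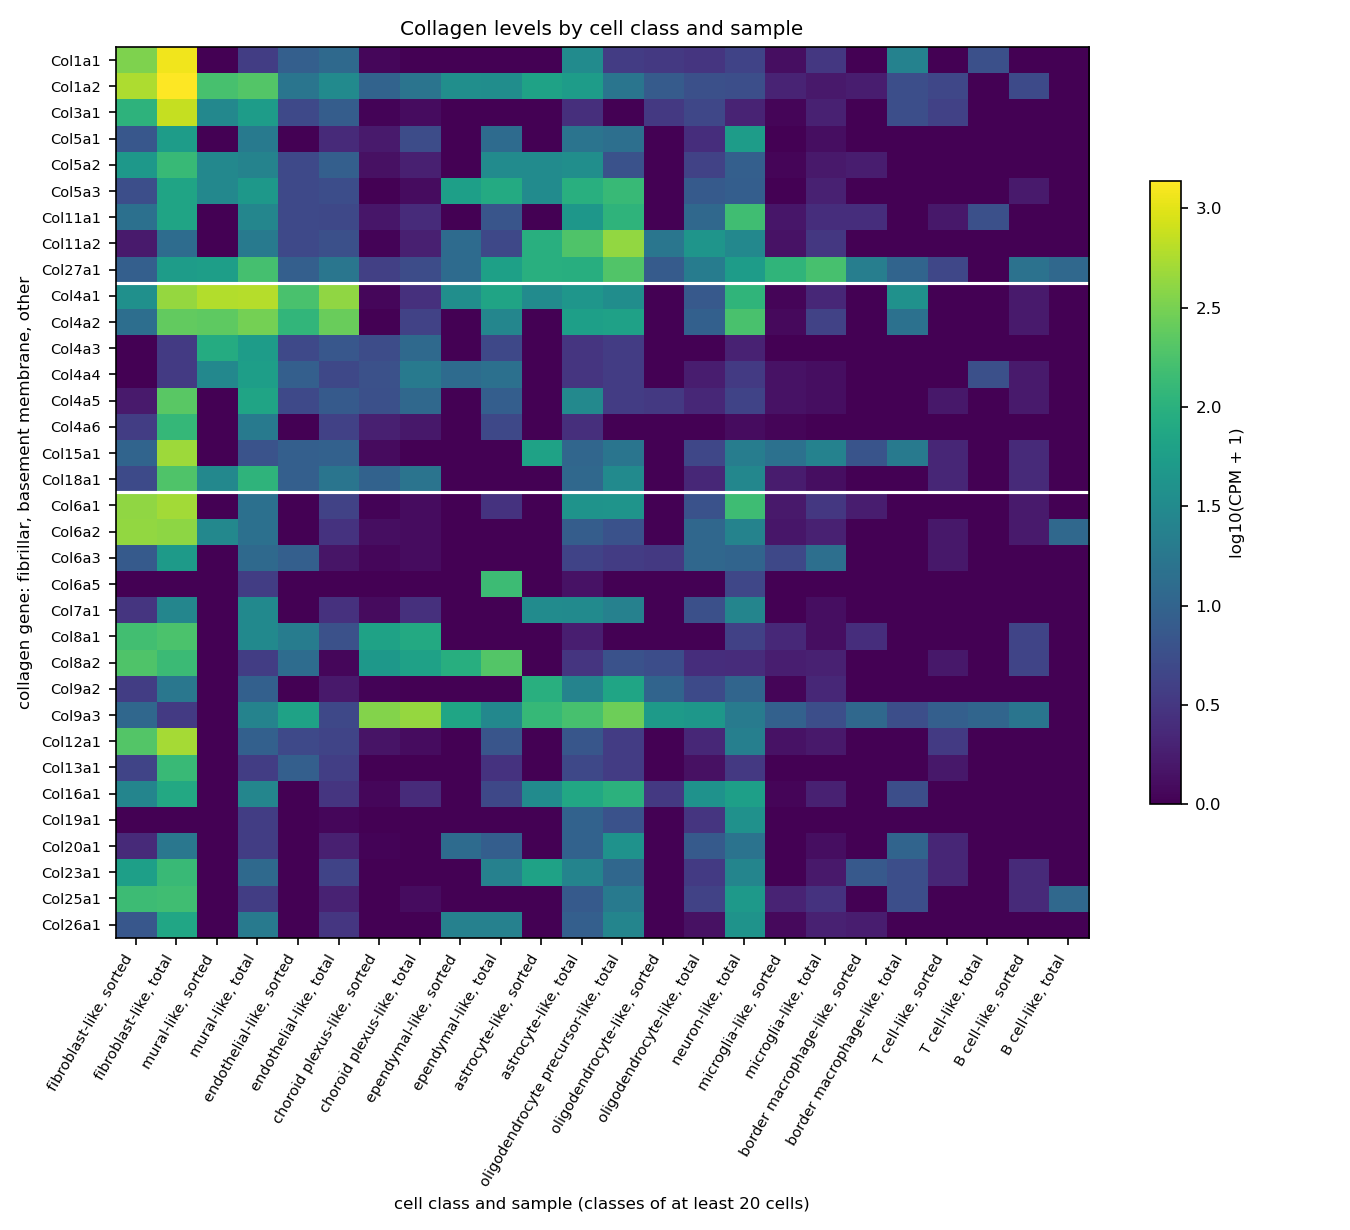
Colour gives log10(CPM + 1) of the 34 named members (rows, with white lines between fibrillar, basement membrane and other genes) in classes of at least 20 cells (columns, by sample), with neutrophil-like, NK cell-like, monocyte-like, erythroid-like and neuroblast-like cells not drawn. Col1a1 and Col1a2 are brightest in the fibroblast-like columns and Col9a3 in the choroid plexus-like columns, while Col27a1 is raised in microglia-like columns where most members are dark.

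The fibrillar genes fell into a fibroblast set and a set that was highest elsewhere. Col1a1 (chr11:94936224-94953042) and Col1a2 (chr6:4504814-4541544) encode the chains of type I collagen, the main fibre former. In fibroblast-like cells Col1a1 stood at 341 CPM [312 to 372] in the sorted and 1185 CPM [1083 to 1295] in the total sample. Col1a2 stood at 565 CPM [527 to 604] and 1379 CPM [1269 to 1497]. Both were higher in the total sample, and the 3 total suffixes with at least 20 such cells had 639, 1305 and 1557 CPM of Col1a1, all above the highest sorted suffix (374.5 CPM). Col1a2 had at least 1 UMI in 66.8% [62.0 to 71.4] of sorted and 59.7% [50.5 to 68.4] of total fibroblast-like cells, at median depths of 2948 and 1648.5 UMIs. Thinned to 1000 UMIs per cell, which left out 21 sorted and 31 total cells, the shares were 37.0% [32.2 to 42.1] and 52.7% [42.1 to 63.1]. In microglia-like cells, which should lack it, the unthinned share was 0.226% sorted and 0.347% total, at median depths of 2029 and 4618.5 UMIs.

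Col3a1 (chr1:45311538-45349706), whose type III fibres accompany type I, had 107 CPM [90.7 to 125] in sorted and 730 CPM [651 to 817] in total fibroblast-like cells. Col5a2, a chain of the type V collagen that sets fibril width, had 46.3 and 129 CPM there. Col5a1, its partner chain, was as high in neuron-like cells (53.6 CPM [49.4 to 58.1]) as in total fibroblast-like cells (52.7 CPM [33.0 to 79.8]). In contrast to Col5a2, it thus had no single class at the top.

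Col5a3 and Col11a2 had their highest levels in oligodendrocyte precursor-like cells, the dividing glia that give rise to myelinating cells. Col27a1 did too, but its level there overlaps that of total microglia-like cells. Col11a2, a chain of the type XI collagen known from cartilage, had 427 CPM [365 to 498] in 152 such cells of the total sample. The level was 187 CPM [170 to 205] in astrocyte-like, 42.7 CPM in oligodendrocyte-like and 28.3 CPM among neuron-like cells. These levels fall apart beyond counting error, but with the clusters drawn at resolution 0.5 the precursor-like level was 170 CPM. The suffixes with at least 20 precursor-like cells had 261, 402 and 507 CPM of Col11a2. All 8 neuron markers were detected in these cells, summing to 8684 CPM, and the 8 precursor markers summed to 4445 CPM, against 255 CPM in total astrocyte-like cells. Col5a3 had 131 CPM [97.8 to 173] in precursor-like cells, against 93.6 CPM [81.8 to 107] for astrocyte-like and 7.58 CPM for neuron-like ones, so the first and second of these overlap. At resolution 0.5 it fell to 52.1 CPM in precursor-like cells.

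Col27a1 (chr4:63214004-63334991), a fibrillar collagen with a short triple helix, was the only member above 30 CPM in microglia-like cells of either sample. In the sorted sample the microglia-like clusters 2, 3 and 4 had 115 CPM [104 to 127], 117 CPM [105.5 to 130] and 105 CPM [93.5 to 118], which overlap. In the total sample cluster 20 (435 cells) had 188 CPM [172 to 204] and cluster 3 (116 cells) 45.0 CPM [22.5 to 80.6]. The class was not compared between samples, because cluster 4 was led by Ccl4 and Ccl3 and its 10 leading genes held Tpsb2, a mast cell marker, and no microglia marker. Cluster 20 also had no microglia marker among its 10 leading genes. Col27a1 also reached 193 CPM [152 to 242] in precursor-like and 162 CPM [124 to 209] in mural-like cells of the total sample, the former falling to 106 CPM at resolution 0.5. The precursor-like interval overlaps that of cluster 20. T cell-like cells of the sorted sample, of similar median depth, had 3.61 CPM [1.32 to 7.86].

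Col11a1, the other type XI chain, was highest in neuron-like cells (149 CPM [142 to 156]). It had 108 CPM [78.0 to 146] in precursor-like and 45.4 CPM in astrocyte-like ones.

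The basement membrane genes were led by Col4a1 and Col4a2, whose products join in the common form of type IV collagen. Col4a1 had 593 CPM [367 to 906] in sorted and 616 CPM [538 to 701] in total mural-like cells, 438 CPM [377 to 507] in total fibroblast-like cells and 416 CPM [402 to 431] in total endothelial-like cells. Col4a2 had 226, 305, 242 and 264 CPM in the same classes. As whole classes, mural-like cells were highest for Col4a1, and for Col4a2 the intervals of the 3 total classes (251 to 367, 197 to 294 and 253 to 276) overlap. The fibroblast-like class joins 2 unlike clusters, described below. Its cluster 14 in the total sample stood above mural-like cells for both genes, at 885 CPM [756 to 1029] of Col4a1 and 487 CPM [393 to 596] of Col4a2. When mural-like and endothelial-like cells were clustered again, the 120 total cells led by the pericyte genes Kcnj8, Vtn and Abcc9 had 750 CPM [662 to 847] of Col4a1. The sub-clusters of 259, 161 and 212 total cells led by Hbb-bt, Egr3 and Ivns1abp had 400, 441 and 475 CPM. The 68 total cells with Acta2 and Tagln among their leading genes had 480 CPM [443 to 518], and the sub-clusters led by Ctss (39 cells) and Meg3 (131 cells) had 309 and 257 CPM. The 8 pericyte markers were all detected in both classes of the total sample, at 4273 CPM in the endothelial-like and 23727 CPM in the mural-like class.

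Neuron-like cells as a class held Col4a1 at 112 CPM [106 to 118] and Col4a2 at 169.9 CPM [162 to 178], the reverse order of the vascular classes. Their cluster 22 did not show this order, with 24 and 16 UMIs, within counting error of equal counts. Endothelial markers, 6 of 9 detected, summed to 291 CPM in neuron-like cells, against 17168 CPM where all 9 were detected, in the endothelial-like class.

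The Alport collagens Col4a3, Col4a4 and Col4a5, known from the kidney filter, were low in most classes. Col4a3 had 54.0 CPM [33.0 to 83.4] and Col4a4 56.7 CPM [35.1 to 86.7] in total mural-like cells, from 20 and 21 UMIs, which became 18.1 and 16.6 CPM when collagens were kept in the clustering and 19.9 and 18.5 CPM at resolution 2. In cluster 27, 43 choroid plexus-like cells of the total sample led by Psd2, Trpm3 and Htr2c, Col4a3 had 212 CPM [121 to 345], Col4a4 385 CPM [258 to 553] and Col4a5 226 CPM [132 to 361]. This cluster raised 4 of the 8 choroid plexus markers, just the 50% needed for its name. The larger choroid plexus-like cluster 0 had 4.89 CPM of Col4a3 and 6.14 CPM of Col4a4 in the sorted sample. Col4a5 and Col4a6 of the X chromosome, the back to back pair shown above, were highest in total fibroblast-like cells, at 216 CPM [173 to 265] and 122 CPM [90.9 to 161]. In sorted fibroblast-like cells they had 0.671 and 2.68 CPM, from 1 and 4 UMIs.

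Col15a1 and Col18a1 encode the collagens that release anti-angiogenic fragments (endostatin from the latter). Col15a1 had 472 CPM [408 to 542] in total fibroblast-like cells and 20.6 CPM in neuron-like cells. Col18a1 had 187 CPM [148 to 233] in total fibroblast-like, 108 CPM [77.2 to 147] in mural-like and 15.5 CPM in endothelial-like ones. Sorted fibroblast-like cells had 4.02 CPM of Col18a1. With a looser cell filter (200 genes, 20% mitochondrial UMIs), total fibroblast-like cells had lower levels of several members. Col1a1 was at 667, Col1a2 at 897 and Col3a1 at 368 CPM. Col4a5 was at 80.8, Col4a6 at 45.2, Col15a1 at 157 and Col18a1 at 61.6 CPM. Col25a1 rose instead, from 148 to 306 CPM. With a stricter filter (1000 genes, 5% mitochondrial UMIs) Col4a5 was at 330 and Col4a6 at 201 CPM.

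Among the other collagens, type VI filament chains were high in fibroblast-like cells of both samples. Col6a1 (chr10:76708792-76726168) had 416.5 CPM [384 to 451] sorted and 510 CPM [444 to 583] total, and Col6a2 429 CPM [397 to 464] and 407 CPM [348 to 473]. Over the whole class neither gene differed much between the samples, unlike Col1a1 and Col3a1. The class joins clusters in unequal parts, and within its cluster 5 both genes were higher in the total sample beyond counting error, as given below. Col6a3, the long remaining chain, had 6.71 CPM sorted and 50.3 CPM total from 10 and 21 UMIs, the latter falling to 27.4 CPM with the looser filter. Col12a1, which decorates type I fibrils, had 196.5 CPM [175 to 220] and 517 CPM [451 to 591].

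The network collagens Col8a1 and Col8a2 were shared by fibroblast-like and choroid plexus-like cells. Col8a1 had 152 CPM [133 to 173] and 177 CPM [139 to 222] in sorted and total fibroblast-like cells, and 63.5 and 80.4 CPM in choroid plexus-like cells. The total fibroblast value rests on suffix 2, with 59 of its 74 UMIs at 898 CPM, while suffixes 3 and 4 had 51.0 and 37.7 CPM, and it falls to 42.6 CPM without suffix 2 and rises to 340 CPM without suffix 3. With the stricter cell filter it is 57.5 CPM. Col8a2 had 187 CPM and 136.5 CPM in fibroblast-like cells and 46.8 and 62.4 CPM in choroid plexus-like cells. Among classes it was highest in 21 ependymal-like cells of the total sample, the ciliated cells of the ventricle wall. The level was 199 CPM [162 to 240], which overlaps that of sorted fibroblast-like cells [166 to 210]. Col6a5 had 142 CPM in the ependymal-like cells. With the stricter filter the ependymal-like levels of Col8a2 and Col6a5 fell to 15.1 and 0 CPM. The choroid plexus-like cluster 27 had 266 CPM [162 to 410] of Col8a2.

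Col9a3, a chain of the fibril-associated type IX collagen, was the leading collagen of choroid plexus-like cells, the epithelium that makes cerebrospinal fluid. It had 362 CPM [352 to 373] in 2515 sorted and 439 CPM [417 to 461] in 349 total cells. Its partner chain Col9a2 had 69.5 CPM [45.8 to 101] in precursor-like cells, where Col9a3 had 278 CPM [228 to 336], and 21.3 CPM there at resolution 0.5. Cluster 27 alone had 3426 CPM [3021 to 3870] of Col9a3, from 258 UMIs. In cluster 0, which both samples held in number, Col9a3 was at 391 CPM sorted and 376 CPM total, a ratio of 0.96 [0.90 to 1.03].

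The fibroblast-like class held 2 clusters, and the samples drew on them unequally. Cluster 5 (394 sorted and 47 total cells) was led by Mgp, Nov and Igfbp6, and cluster 14 (13 sorted and 77 total cells) by Dcn, Slc6a13 and Lum. Of 10 fibroblast markers, 5 were raised at least 2-fold over all other cells in cluster 5, just the 50% needed for a name. In cluster 14, 8 were. Suffixes 3 and 4 held 35 and 24 of the 77 total cells of cluster 14. Differences between suffixes were not separated from the contrast of the clusters. Within the total sample, the median depth was 1658 UMIs per cell in cluster 5 and 1550 in cluster 14, and the summed UMIs were 226534 and 191034. There cluster 14 had 10804 CPM of collagen and cluster 5 had 5284 CPM. Collagen genes took no part in choosing the variable genes, but the cells were grouped on other genes, so the differences are a description. Of 26 members with at least 10 UMIs, 16 were at least 2-fold higher in cluster 14, beside 26.9% of all features, and 5 at least 2-fold lower, beside 20.3%. The median log2 difference was 1.75 over the members and 0.24 over all features.

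All 6 basement membrane genes with at least 10 UMIs were higher in cluster 14. Col4a1 had 61.8 CPM [33.8 to 104] in cluster 5 and 885 CPM [756 to 1029] in cluster 14, a ratio of 14.3 [8.30 to 26.7]. Col15a1 had 1 UMI in cluster 5 and 196 in cluster 14 (1026 CPM), a ratio of 232 [41.2 to 9226]. Col4a5, with 0 UMIs in cluster 5 and 90 in cluster 14, was at least 35.6-fold higher by a floor of 3 counts over cluster 5. By the same floor Col4a6 was at least 20.2-fold and the transmembrane collagen Col13a1 at least 22.1-fold higher. Col18a1 had 8.83 and 398 CPM, from 2 and 76 UMIs. Pericyte markers summed to 106 CPM in cluster 5, with 2 of 8 detected and Kcnj8, Abcc9, Higd1b and Atp13a5 at 0, and to 5072 CPM in cluster 14, with 6 of 8 detected and Higd1b at 0. Neuron markers summed to 1245 and 4381 CPM. Their part in the difference was not tested.

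Fibrillar genes of type I and III differed less. Col1a1 had 790 and 1654 CPM, a ratio of 2.09 [1.74 to 2.53], Col1a2 had 1015 and 1811 CPM (1.78 [1.51 to 2.12]), and Col3a1 had 313 and 1225 CPM (3.91 [2.98 to 5.17]). Col5a2 did not differ beyond counting error, at 119 and 141 CPM (1.19 [0.67 to 2.10]).

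Cluster 5 was the higher for 2 type VI chains and for type VIII. Col6a1 had 715 CPM there and 267 CPM in cluster 14, which is 2.68-fold [1.94 to 3.75] higher, and Col6a2 had 587 and 194 CPM, 3.03-fold [2.09 to 4.49]. The type VI chain Col6a3 was the other way, at 30.9 and 73.3 CPM from 7 and 14 UMIs, within counting error (2.37 [0.90 to 6.94]). Col8a1 had 313 CPM in cluster 5 and 15.7 CPM in cluster 14 from 71 and 3 UMIs, with an interval of 6.56-fold to 99.1-fold for the ratio. The Col8a1 level of cluster 5 rests on suffix 2, where the whole class had 898 CPM. The 3 Col8a1 UMIs of cluster 14 lay in suffixes 3 and 4. Col8a2 had 234 and 20.9 CPM, 11.2-fold [4.12 to 42.5]. Col25a1, a transmembrane collagen first found in amyloid plaques, had 62 UMIs (274 CPM) in cluster 5 and 0 in cluster 14, so it was at least 17.4-fold higher by a floor of 3 counts over cluster 14. Col12a1 and Col23a1 were near equal, at 450 and 597 CPM and at 141 and 120 CPM.

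**Figure D3:**
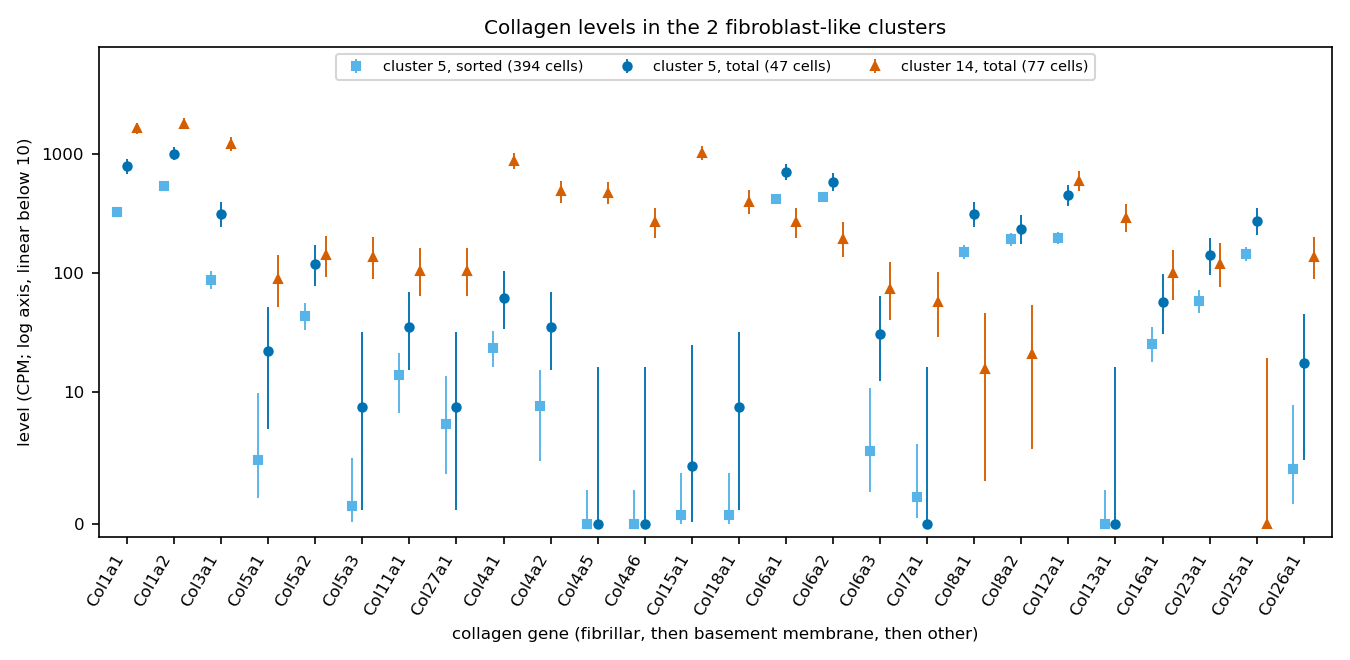
Points give CPM (log axis, linear below 10) with 95% counting intervals for members above 50 CPM in cluster 5 of the sorted sample, cluster 5 of the total sample or cluster 14 of the total sample. Triangles of cluster 14 stand above the circles of cluster 5 for Col4a1 to Col18a1 and below them for Col6a1, Col6a2, Col8a1, Col8a2 and Col25a1.

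Neuron-like clusters of the total sample differed in which collagen led. In cluster 21 (2234 cells, led by Camk2a and Slc17a7), Col4a2 (210.5 CPM), Col6a1 (196 CPM), Col4a1 (156 CPM) and Col11a1 (141 CPM) were the highest. In cluster 25 (1536 cells, led by Baiap3, Coro6 and Elavl2, with Sst and Gad1 among its leading genes) Col11a1 had 242 CPM [225 to 260]. Next came Col4a2 (189 CPM), Col16a1 (114.5 CPM), Col25a1 (104 CPM), Col4a1 (96.1 CPM), Col27a1 (80.3 CPM) and Col19a1 (69.8 CPM). The 4 suffixes had 227 to 249 CPM of Col11a1 there. In cluster 28 (468 cells, led by Rgs9, Adcy5 and Pde10a), Col6a1 had 365 CPM [326 to 407], with a range over suffixes of 123 to 490 CPM. Cluster 29 (88 cells, with Ntng1 and Pcp2 among its leading genes) had Col18a1 at 415 CPM [343 to 498], Col5a1 at 189.7 CPM and Col4a2 at 183 CPM. Only 2 suffixes held 20 cells of it, at 570 and 103 CPM of Col18a1, so that level is uneven. In cluster 22 (1018 cells, led by Gabra6 and Fat2), Col27a1 led with 142 CPM [121 to 166]. Endothelial markers summed to between 251 and 404 CPM in the 5 clusters named here, and fibroblast markers to between 93.1 and 173 CPM.

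**Figure D4:**
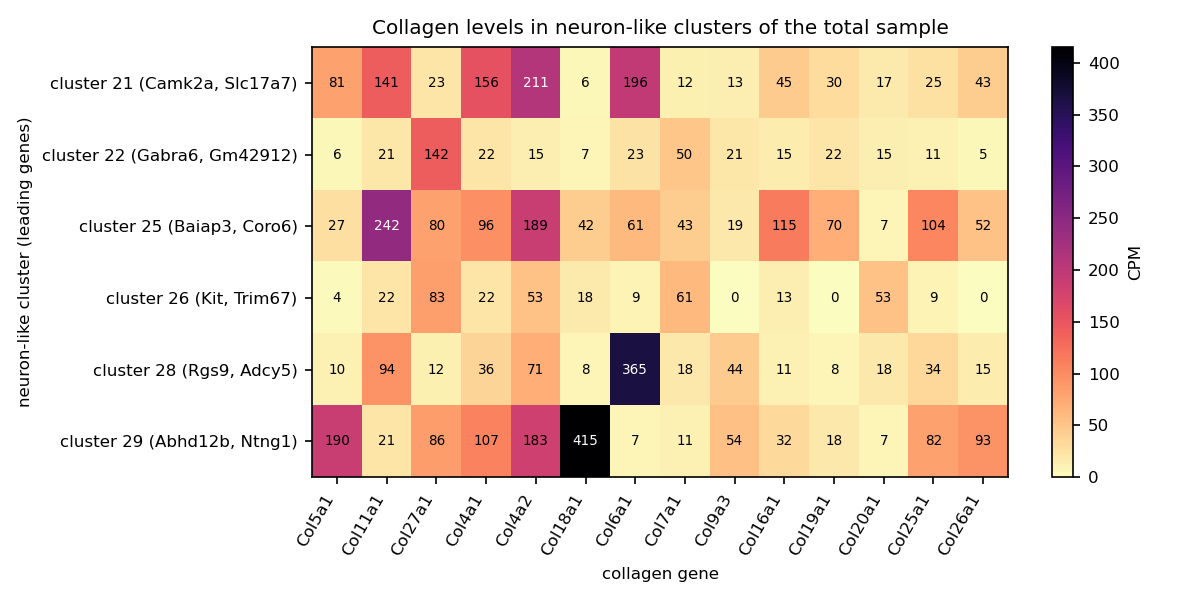
Squares give CPM, by colour and number, of members above 50 CPM in any of the 6 neuron-like clusters of the total sample (rows, with 2 leading genes each). Col18a1 in cluster 29 and Col6a1 in cluster 28 are the darkest.

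Chains that join in 1 protein were not counted in 1 ratio across classes. Type IV collagen takes 2 Col4a1 chains for 1 Col4a2 chain. UMIs count RNA, so a UMI ratio is not a ratio of protein chains and is compared here only between classes. The UMI ratio of Col4a1 to Col4a2 was 1.57 [1.49 to 1.66] in total endothelial-like cells (3282 and 2084 UMIs), 2.02 [1.60 to 2.55] in mural-like and 1.81 [1.41 to 2.33] in fibroblast-like cells. It was 0.66 [0.61 to 0.71] in neuron-like (1240 and 1882 UMIs) and 0.76 [0.58 to 0.99] in astrocyte-like cells. These vascular and neural classes of the total sample thus lie on opposite sides of 1.

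The type VI ratio also differed between classes. Col6a1 to Col6a2 was 0.97 [0.87 to 1.09] in sorted and 1.25 [1.02 to 1.54] in total fibroblast-like cells. It was 5.90 [5.19 to 6.74] in neuron-like, 5.28 [3.17 to 9.29] in astrocyte-like and 14.1 [9.23 to 22.5] in cluster 28, with 324 and 23 UMIs. In total oligodendrocyte-like cells the ratio was 0.52 [0.24 to 1.06] from 13 and 25 UMIs, within counting error of equal counts.

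Type I protein takes 2 Col1a1 chains for 1 Col1a2, which UMI counts do not measure. The UMI ratio of Col1a1 to Col1a2 was 0.60 [0.54 to 0.67] in sorted and 0.86 [0.76 to 0.97] in total fibroblast-like cells. In total mural-like cells there was 1 Col1a1 UMI beside 74 of Col1a2 (0.014 [0.00034 to 0.078]), and in sorted choroid plexus-like cells 2 beside 120 (0.017 [0.0020 to 0.062]). Col8a1 to Col8a2 was 1.36 [1.22 to 1.51] in sorted and 1.29 [1.07 to 1.54] in total choroid plexus-like cells.

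**Figure D5:**
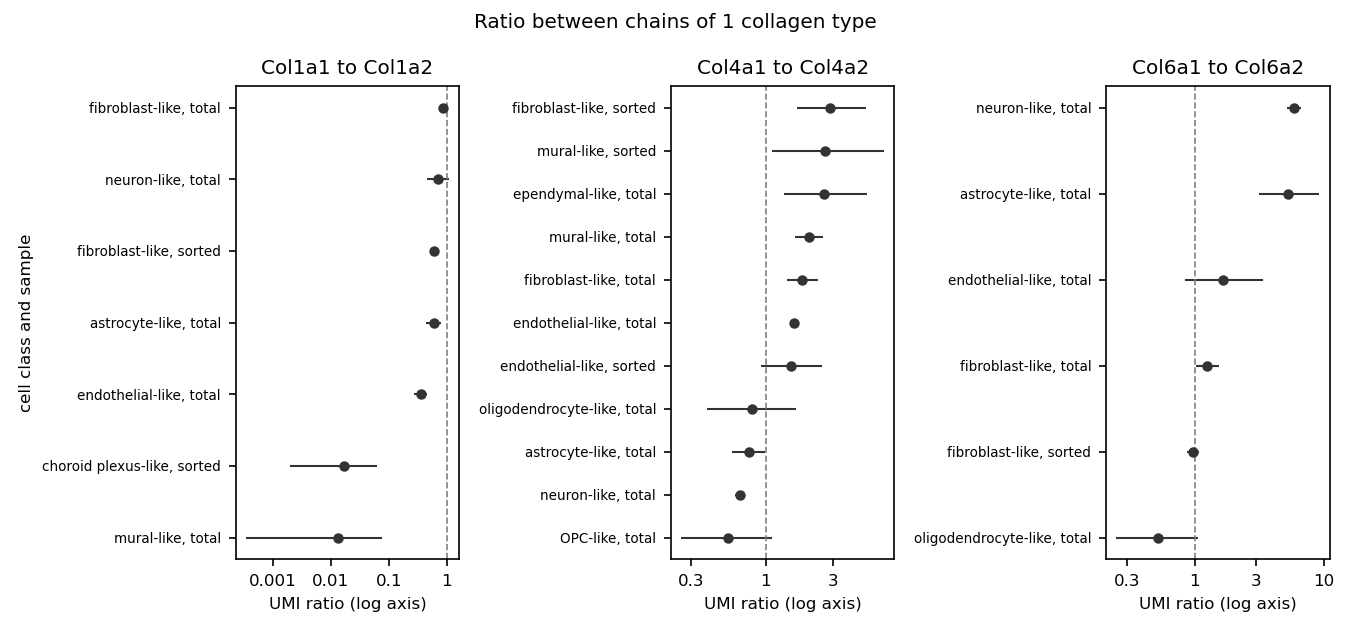
Points give the UMI ratio (log axis) of 2 chains in each class and sample with at least 20 UMIs of the pair, with 95% counting intervals, the dashed line marks 1, and OPC-like stands for oligodendrocyte precursor-like. For Col4a1 to Col4a2 the fibroblast-like, mural-like and endothelial-like points lie to the right of the line and the neuron-like and astrocyte-like points to the left.

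Between the samples, 4 classes were set side by side. Microglia-like cells were not, for the reason given above. Their cluster 3 (1618 sorted and 116 total cells) went the other way, with summed collagen of 155.8 CPM sorted and 90.1 CPM total, a ratio of 0.58 [0.36 to 0.89]. The median log2 ratio of total to sorted there was -0.52 over 4 members and -0.48 over all features. In fibroblast-like cells, mostly cluster 5 in the sorted and mostly cluster 14 in the total sample, 22 of 29 members with at least 10 UMIs were at least 2-fold higher in the total sample, beside 37.1% of all features, and 1 lower, beside 14.1%. Within cluster 5 alone, 13 of 21 members were higher, beside 26.3%, and 1 lower, beside 12.9%. Summed collagen in cluster 5 was 2718 CPM [2634 to 2804] sorted and 5284 CPM [4989 to 5592] total. Col1a1 had 328 CPM sorted and 790 CPM total, a ratio of 2.41 [2.02 to 2.87], and Col3a1 87.6 and 313 CPM, a ratio of 3.58 [2.64 to 4.82]. Of the type VI and VIII chains, Col6a1 had 417 and 715 CPM (1.71 [1.43 to 2.04]), Col6a2 435 and 587 CPM (1.35 [1.11 to 1.63]), Col8a1 151 and 313 CPM (2.07 [1.56 to 2.72]) and Col8a2 192 and 234 CPM (1.22 [0.89 to 1.64]). The total Col8a1 level rests on suffix 2, as above. Col6a3 had 8 and 7 UMIs, a ratio of 5.60 [1.73 to 17.7]. Choroid plexus markers summed to 7767 CPM in sorted cells of cluster 5, with 6 of 8 detected, and to 419 CPM in total ones, with 3 detected and Folr1, 2900040C04Rik and Prlr at 0. Their part was not tested.

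In endothelial-like cells 11 of 30 members were at least 2-fold higher in the total sample, beside 40.4% of all features, and 3 lower, beside 9.02%, so the higher calls were near the background. Col4a1 had 174 CPM [127 to 234] sorted and 416 CPM total. The samples drew on unlike vascular cells. When endothelial-like and mural-like cells were clustered again, the sub-cluster led by Ttr held 115 sorted and 6 total cells. The part of this make-up in the difference was not tested. Col9a3, the choroid plexus collagen, was the other way, with 63.4 CPM sorted and 3.81 CPM total. Choroid plexus markers summed to 72058 CPM in the 124 sorted cells, with all 8 detected, and to 448 CPM in the 844 total ones, with 2 detected. Their part was not tested.

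In choroid plexus-like cells 4 of 15 members were at least 2-fold higher in the total sample, beside 24.3% of all features, and 0 lower, beside 3.44%. Summed collagen was 517.5 CPM sorted and 681 CPM total, a ratio of 1.32 [1.26 to 1.38]. In cluster 0 it was 555 and 574 CPM, a ratio of 1.03 [0.98 to 1.09], and 0 of 12 members moved 2-fold either way, beside 19.7% of features higher and 2.92% lower. In cluster 1 (1304 sorted and 43 total cells) it was 443 and 401 CPM, a ratio of 0.90 [0.63 to 1.26], with 2 of 10 members higher, beside 29.8%, and 4 lower, beside 30.9%, each of these on 0 to 3 UMIs in the total sample. Cluster 27 was held by the total sample alone. In oligodendrocyte-like cells 13 of 17 members were higher, beside 42.1%, and 1 lower, beside 5.72%, from 108 and 262 CPM. Apart from Col11a2 (7 UMIs) and Col27a1 (3 UMIs), each of the 13 had 0 or 1 UMI in the sorted cells. Only the total sample held cells of the oligodendrocyte-like cluster 24 (502 cells). In cluster 11, which both held, summed collagen was 108 and 104 CPM, with 3 of 6 members higher, beside 26.8%, and 0 lower, beside 5.17%. Each of the 3 had 0 or 1 UMI in the sorted cells.

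The genes that make and bind collagen were counted from set lists, by members at 10 CPM with 3 UMIs. The share of all features passing this was 26.3% in sorted and 32.3% in total fibroblast-like cells, the class of clusters 5 and 14. It was 33.8% in neuron-like and 33.9% in mural-like cells of the total sample. In microglia-like cells it was 23.4% sorted and 26.9% total. Of 17 folding and modifying enzymes, 13 were detected in cluster 5 of either sample and 14 in cluster 14. Serpinh1, the collagen chaperone, had 1088 CPM in cluster 5 sorted and 600.4 CPM total, and 607 CPM in cluster 14. In neuron-like cells 11 of the 17 were detected, led by Ppib (233 CPM), and the 3 leading genes did not include Serpinh1. Of 12 processing and cross-linking genes, 7 were detected in cluster 14, led by Pcolce (817 CPM), which speeds removal of the C-propeptide, and 5 in neuron-like cells, led by the protease Bmp1 (195 CPM).

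Of 10 collagen receptors, 7 were detected in total mural-like cells, led by the integrin chain Itga1 (1207 CPM), and 2 in sorted microglia-like cells, led by the inhibitory receptor Lair1 (689 CPM). Of 12 basement membrane partners, 11 were detected in cluster 14, where Lamc1 (796 CPM), Lama1 (769.5 CPM) and Nid1 (680.5 CPM) led, and 8 in total cells of cluster 5, where Lamb2 led with 208 CPM. Of 10 fibril-binding proteins all 10 were detected in cluster 14, led by Dcn (5036 CPM). In microglia-like cells Sparc, a collagen-binding protein, stood at 3575 CPM sorted and 2630 CPM total, while 1 and 3 of the 10 were detected. Of 10 degradation genes and inhibitors 6 were detected in cluster 14, led by Timp3 (1916 CPM).

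The 10 members below the naming level were Col2a1, Col24a1, Col6a4, Col6a6, Col9a1, Col10a1, Col14a1, Col17a1, Col22a1 and Col28a1. They had 5 (Col10a1) to 211 UMIs (Col14a1) over both samples. Col24a1, a fibrillar collagen, had 191 of its 192 UMIs in the total sample, and Col14a1 had 128 of its 161 total UMIs in endothelial-like cells.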

How the data were processed

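Per the file headers, the authors deposited 2 matrices of raw UMI counts per gene and barcode, written by Cell Ranger (3.0.2 and 3.1.0 in the headers, 3.0.2 in the submitters' processing notes) on the build mm10. The sources used here do not give the annotation release. No columns of other samples were used (0). From these counts, a barcode was kept if it showed 500 genes or more and 10% or less of its UMIs were mitochondrial (74.6% of 13499 sorted and 63.8% of 14674 total). Cells of both samples were clustered with collagen genes left out (Python 3.11.15, scanpy 1.11.5, igraph 0.11.9, 2000 variable genes, 30 components, 15 neighbours, resolution 1), giving 30 clusters. These were named from 22 marker lists, so that a difference from the study may come from the rebuilt names. The doublet caller marked 0.834% of sorted and 0.0854% of total cells. It has not worked in the latter, and no doublets were removed.

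UMIs were summed per class and sample. Intervals are exact (Poisson for levels, Clopper-Pearson for shares and, conditional on the sum, ratios), at 95% (numpy 2.4.6, scipy 1.17.1, pandas 2.3.3, matplotlib 3.10.9). Ratios between samples used members with at least 10 UMIs over both, classes of at least 40 cells in each and 1 CPM added for the call of 2-fold. Members were named with values at 20 CPM and 10 UMIs in a class of at least 20 cells. Other genes came from set lists, the top 3 by level. Members and lists were chosen with earlier results of these data known. Levels by cluster, the second clustering of vascular cells, cluster-wise ratios and the contrast of clusters 5 and 14 were added after seeing the data. Alternatives were cell filters, resolution, collagens kept in clustering, doublets removed, other totals, thresholds and depths, and each suffix left out. Scripts were tested on simulated data. Gene positions are from GENCODE M21 and start-site sequences from RefSeq, both on GRCm38.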

Additional observations from a re-analysis of the deposited data

Results flagged for a closer look

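Barcodes that the cell filter removed also held collagen UMIs. In the sorted sample, 3423 removed barcodes held 1143 collagen UMIs, at 204 CPM [192 to 216], against 417 CPM [410 to 424] in kept cells. In the total sample, 5307 removed barcodes held 11080, at 752 CPM [738 to 766], against 945 CPM [935 to 956] in kept cells. These barcodes enter no comparison here.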

How the results depend on the processing

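No paired analysis was possible because each group is 1 sample and barcode suffixes are not tied to an animal across samples. Of 204 recomputed main results, 155 stayed within the set margin, 49 moved and 0 reversed, and 21 of 34 named levels moved by over 1.5 times under some setting. The cause of each move was not tested.

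With the looser cell filter, fibroblast-like cells held 17.3% of total collagen UMIs, choroid plexus-like cells 51.5% of sorted and neuron-like cells 34.1% of total ones. Fibroblast-like cells of the total sample then had 5298 CPM, the log2 ratio of total to sorted was 0.90 for them and 0.54 for choroid plexus-like cells, where 7 members were higher, and log2 of Col1a1 to Col1a2 in total fibroblast-like cells was -0.43. With the stricter filter, the fibroblast-like share was 29.4% sorted and 8.01% total, the choroid plexus-like share 48.3% and the neuron-like share 58.0%. The total fibroblast-like level was then 9265 CPM, and the choroid plexus-like log2 ratio 0.052 with 1 member higher, while too few total fibroblast-like cells remained for a ratio. The neuron-like share was 40.6% with collagens kept in clustering. The endothelial-like log2 ratio was 1.33 at resolution 0.5, and resolution 2 gave none. Without mitochondrial and ribosomal protein genes in the totals, fibroblast-like levels were 3343 CPM sorted and 8637 CPM total. Choroid plexus-like members higher in total numbered 0 with 10 CPM added, 7 without a UMI minimum and 2 with a minimum of 50 UMIs. At 50 CPM, 10 members were detected in sorted fibroblast-like and 7 in neuron-like cells. No share over all features is given for counts under these settings. The share of fibroblast-like cells with Col1a2 was 66.8% sorted without thinning, and 23.3% sorted and 31.5% total at 500 UMIs.

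Leaving out 1 suffix at a time, the fibroblast-like share ran from 28.6% to 35.4% sorted and 7.34% to 12.3% total, the choroid plexus-like share from 49.8% to 55.4% and the neuron-like share from 37.9% to 42.5%. The total fibroblast-like level ran from 7274 to 8176 CPM, and the log2 ratio of total to sorted from 1.38 to 1.54. For choroid plexus-like cells that ratio ran from 0.32 to 0.46 with 2 to 5 members higher, 2 without total suffix 4. Log2 of Col4a1 to Col4a2 in endothelial-like cells ran from 0.62 to 0.76. Depth limits classes of few cells: mural-like cells of the sorted sample held 46 collagen UMIs.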
